A study of Arabidopsis thaliana with 20 samples.

Results

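The genes described here encode 7 co-chaperones of Arabidopsis thaliana: HOP1 (AT1G12270), HOP2 (AT1G62740), HOP3 (AT4G12400), ROF1 (AT3G25230), ROF2 (AT5G48570), BAG6 (AT2G46240) and BAG7 (AT5G62390). They were chosen by locus, and all 7 were found among the 27444 nuclear protein-coding genes of the annotation. For each gene, the DNase I-seq peaks touching its annotated span or the 1000 bp upstream of it were read in 7 peak lists. This stretch is called its window below, and the windows were 3467 to 5088 bp long. In DNase I-seq, nuclei are digested with DNase I and short fragments cut out by it are sequenced, so a peak marks chromatin that is open to the enzyme.

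All libraries came from whole 7-day-old seedlings of a Col-0 line that carries the transgenes UBQ10:NTF and ACT2:birA, a nuclear tag and a biotin ligase under the promoters of a ubiquitin and an actin gene, which allow nuclei to be captured through biotin (INTACT). The heat series comprised seedlings of a light/dark cycle (LD) exposed to 45 °C for 30 min, a spray control sampled 3 h after a light spray with 0.5% ethanol, and an untreated LD control. The light series comprised seedlings kept in the dark and dark-grown seedlings given 30 min, 3 h or 24 h of light, the last of these under LD conditions. Each condition had 1 library. It was listed under 2 samples, 1 for single-end and 1 for paired-end reads, whose peak files were identical and were counted once. Differences between conditions therefore have no replicate check, and no test between conditions is given. The lists held 26712 to 34637 nuclear peaks, nearly all 150 bp wide and placed on a grid of 20 bp. Each peak carries the authors' signal, a whole number whose median ranged between lists between 148 and 1036. The signal was therefore used only as a percentile within its own list.

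Co-chaperones bind the chaperones HSP70 and HSP90 and steer their cycle of client binding and release. HOP proteins bridge HSP70 and HSP90 through tetratricopeptide repeats, so that a client can pass between them. ROF1 and ROF2 are FK506-binding proteins with peptidyl-prolyl isomerase domains and a tetratricopeptide region. In Arabidopsis, ROF1 binds HSP90.1 and enters the nucleus with the heat shock factor HSFA2 under heat, and ROF2 is a heat-induced partner of ROF1. BAG proteins share a domain that binds HSP70. BAG6 is a calmodulin-binding member linked to plant cell death and immunity, and BAG7 resides in the endoplasmic reticulum, where it binds the HSP70 family chaperone BiP.

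After heat shock, 4 of the 7 genes, HOP3, ROF1, ROF2 and BAG6, had open sites at several places in their transcribed span. Both controls had few or none there. The heat shock peaks covered from 17.7% (ROF2) to 25.8% (HOP3) of these 4 spans. The 7 windows together held 28 peaks after heat shock, against 11 in the spray control and 10 in the LD control. In the light series they held 9 peaks in the dark, 9 after 30 min, 9 after 3 h and 8 after 24 h of light. The median window held 4 peaks after heat shock, 2 in each of the controls and 1 at each time of the light series, while the median over all protein-coding genes was 1 in every list. The peaks covered 3535 bp of the 7 spans after heat shock and 674 bp in each of the controls. A wider share of cells with an open site and a wider opening in each cell cannot be told apart in these bulk libraries.

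**Figure D1:**
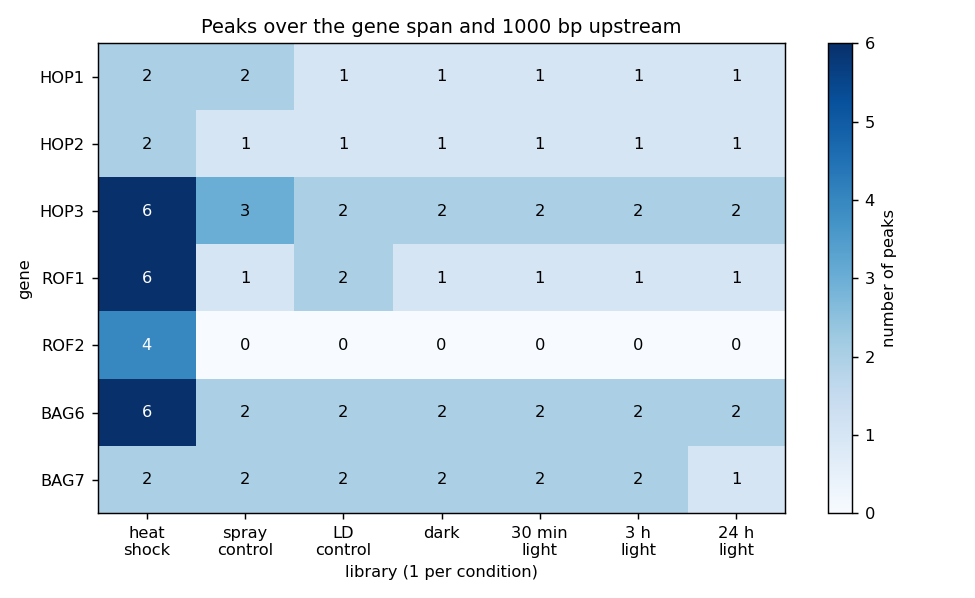
Number of DNase I-seq peaks over the gene span and 1000 bp upstream, for 7 co-chaperone genes (rows) in the 7 lists (columns, 1 library per condition). HOP3, ROF1 and BAG6 have 6 peaks and ROF2 has 4 after heat shock, and no other cell exceeds 3.

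A heat shock peak that overlapped no LD control peak by at least 1 bp is called gained. Such peaks lay in the windows of 6 of the 7 genes, namely HOP1, HOP2, HOP3, ROF1, ROF2 and BAG6, against 12.5% of all protein-coding genes. Among the 7418 genes whose windows were as long as those of the 7 co-chaperone genes, the share was 14.6%. At least 4 gained peaks lay in the windows of 4 of the 7 genes, with 6 at HOP3, 5 at ROF1, 4 at ROF2 and 4 at BAG6. Only 15 genes of the genome (0.0547%) had as many, 11 of them within that range of window lengths (0.148%). The spray control, set against the LD control in the same way, had at least 4 at 11 genes of the genome. Of the 7 genes, 0 were among those. The median number of gained peaks per window was 4 over the 7 genes and 0 over all genes. The plot of gained peaks per gene shows the 7 genes on the distribution over all genes.

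**Figure D2:**
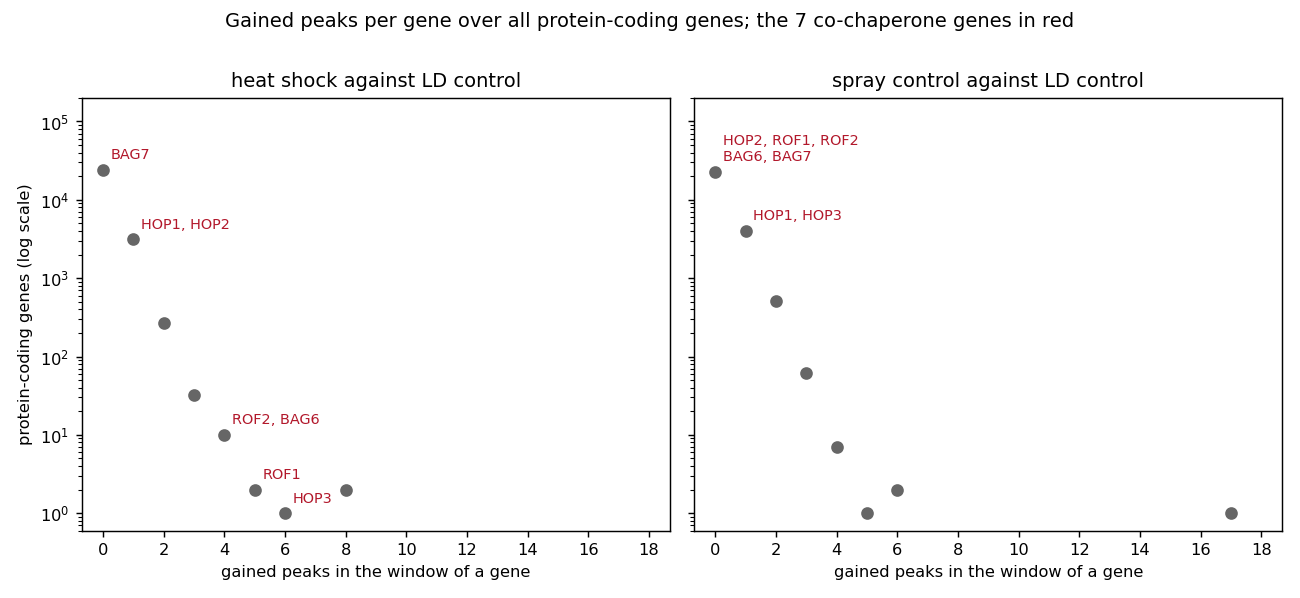
Number of protein-coding genes (vertical axis, log scale) by the number of gained peaks in their window (horizontal axis), for heat shock (left) and the spray control (right), each against the LD control. The 7 co-chaperone genes are written beside the point they belong to. After heat shock HOP3 stands at 6, ROF1 at 5, ROF2 and BAG6 at 4, and in the spray control the highest of the 7 stand at 1.

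The 21 gained peaks were mostly absent from every list without heat. Of them, 19 overlapped no peak of any of the other 6 lists. The remaining ones were a weak peak upstream of HOP1, also found in the spray control, and a peak in the 3′ UTR of HOP3, found in all lists but the LD control. The midpoints of 14 gained peaks (66.7%) lay in coding sequence, 3 in introns, 3 in 3′ UTRs and 1 upstream. Over the whole genome 12.7% of the 4962 gained peaks had their midpoint in coding sequence. These 4962 peaks were not limited to gene windows, as the 21 were, so both shares are not over like sets of positions. The share among gained peaks in the windows of all genes is not given here. The median signal of the 21 gained peaks stood at percentile 61.8 of the heat shock list, with a range of 9.42 to 99.2. The median of all 4962 gained peaks stood at percentile 18.

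**Figure D3:**
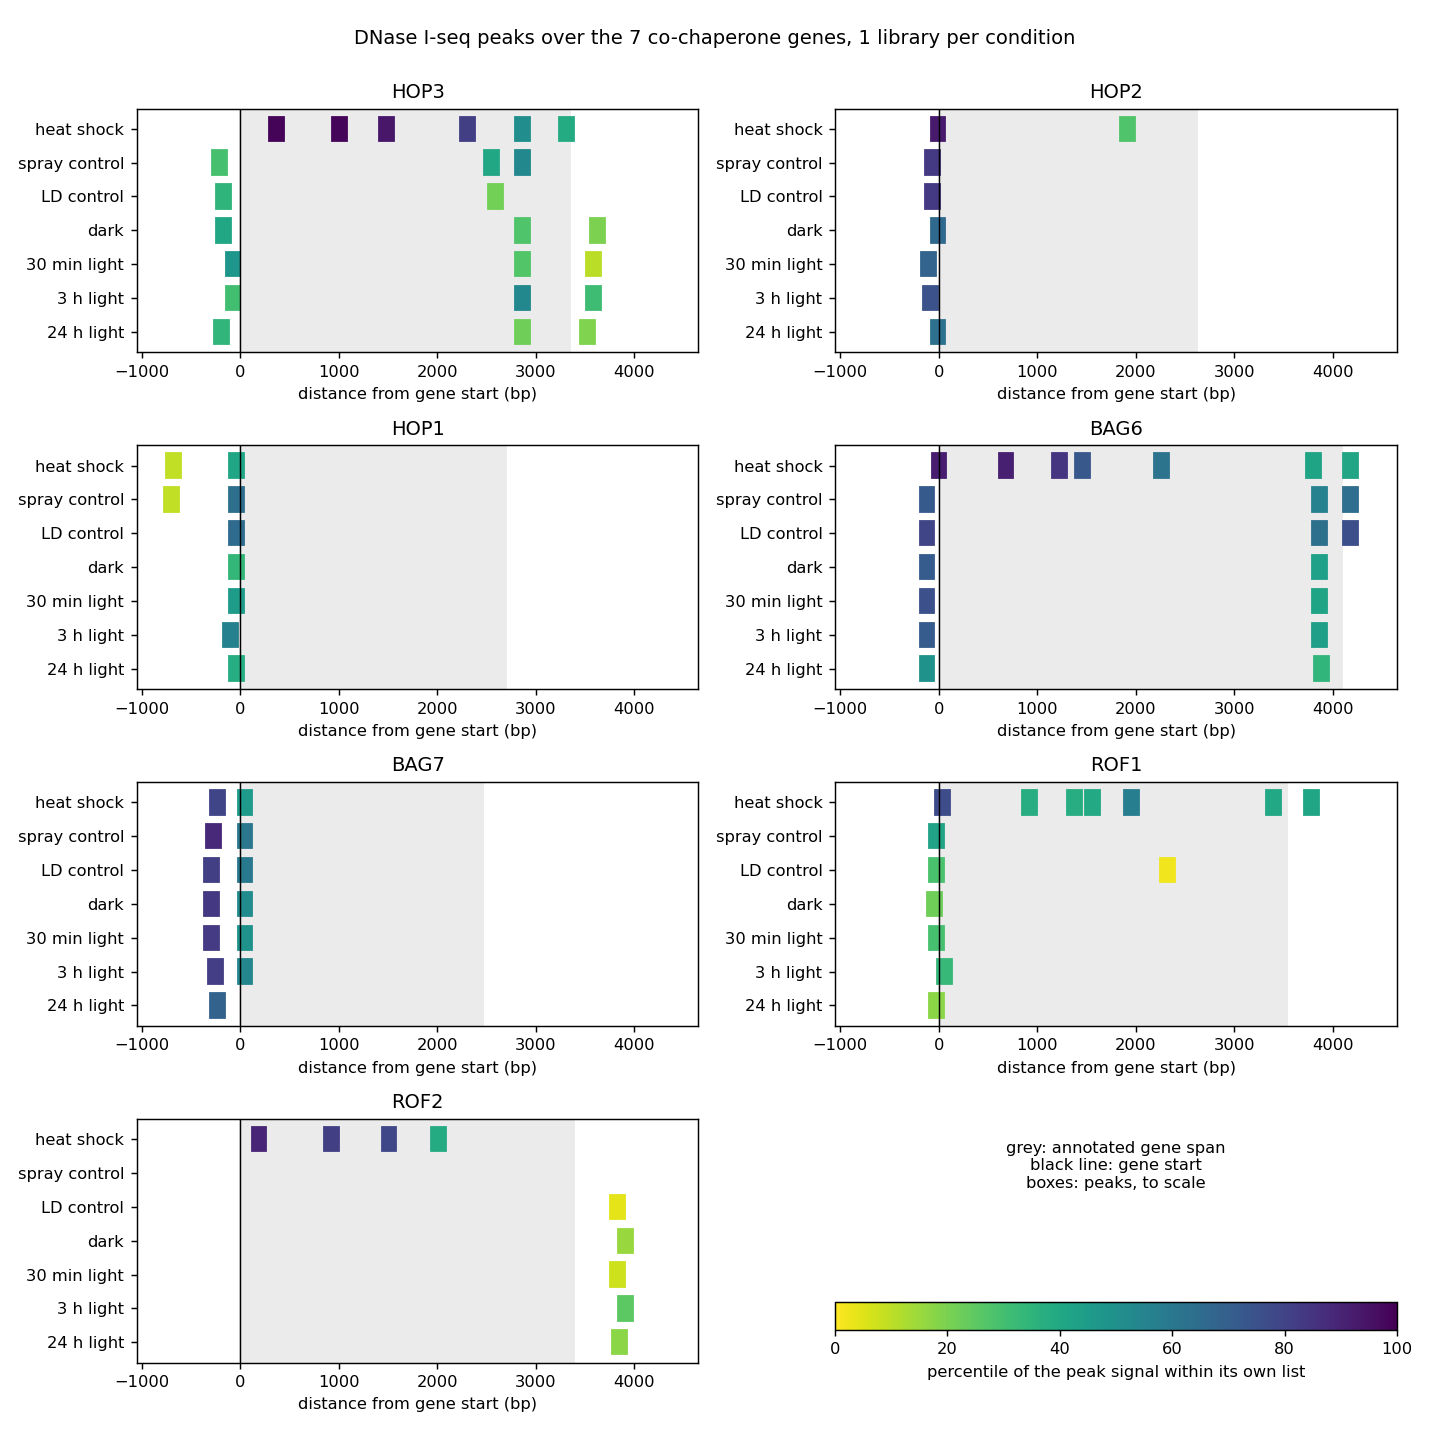
Peaks (boxes, to scale) over each gene and its flanks, by distance from the gene start in the direction of transcription (bp). Rows are the 7 lists, 1 library each, and the colour gives the percentile of the peak's signal within its own list. Grey marks the annotated span. HOP3, BAG6, ROF1 and ROF2 carry peaks inside the span in the heat shock row that the other rows lack, HOP2 carries 1, and HOP1 and BAG7 carry none.

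HOP3 (chromosome 4, 7338018 to 7341363, minus strand, 5 exons) had 6 peaks in its window after heat shock, against 3 in the spray control and 2 in the LD control. All 6 touched the transcribed span and together covered 25.8% of it, against 8.97% in the spray control and 4.48% in the LD control. Their midpoints lay 368, 1008, 1488, 2308, 2868 and 3308 bp downstream of the gene start. The first was the strongest, with a signal of 1988 (percentile 99.2), and lay within the coding part of exon 1. The second, with a signal of 1806 (percentile 98.7), was centred in the first intron. The last one lay at the end of HOP3 and also touched the neighbouring gene AT4G12390 (PME1), so it cannot be assigned to 1 of them.

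HOP3 also lost its upstream peak. The LD control had a peak centred 172 bp upstream of the start (signal 309, percentile 35.1), the spray control had one centred 212 bp upstream, and the heat shock list had none within 1000 bp upstream. At each time of the light series a peak stood at 72 to 192 bp upstream. The peak of the LD control touches the tRNA gene AT4G12405, which lies between HOP3 and its upstream neighbour, as do those of the light series. The LD control peak of HOP3 holds a stretch of 47 bp that matches another locus at 97.9% identity. The peaks of 30 min and 3 h of light hold one of 83 bp at 97.6% and a longer one of 109 bp at 90.8%. How reads that fit several loci were placed is not given in the sources used here. A further LD control peak, centred 2588 bp downstream in the 3′ UTR (percentile 21.1), was also absent after heat shock.

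The sequences of the strongest gained peak and of the lost upstream peak are shown because the heat shock list had peaks inside the transcribed span of HOP3 and none upstream of it. Both are printed 5′ to 3′ on the gene strand from the TAIR10.1 assembly. Neither holds a heat shock element, the repeated motif bound by heat shock factors, with 2 or more units. The elements searched were GAANNTTC and TTCNNGAA for 2 units, and GAANNTTCNNGAA and TTCNNGAANNTTC for 3 units, which contain both of the shorter ones. The 2-unit elements read the same on both strands, and the 3-unit ones are reverse complements of each other.

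HOP3, peak gained after heat shock (chr4:7340921-7341070, minus strand): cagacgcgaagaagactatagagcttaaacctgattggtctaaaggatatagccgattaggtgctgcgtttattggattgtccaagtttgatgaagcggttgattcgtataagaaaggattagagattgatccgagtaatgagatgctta

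HOP3, upstream peak of the LD control, absent after heat shock (chr4:7341461-7341610, minus strand): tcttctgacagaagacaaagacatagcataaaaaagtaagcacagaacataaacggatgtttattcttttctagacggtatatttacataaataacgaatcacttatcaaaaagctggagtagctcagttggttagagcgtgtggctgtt

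HOP3 was the only one of the 7 genes with a 3-unit heat shock element between 300 bp upstream and 100 bp downstream of its start, against 0.718% of all genes. It lies in the 5′ UTR, from 24 to 36 bp after the first base of the gene, between the lost and the gained peak, and no list had a peak over it. A match of letters says nothing of binding. It is shown with 8 bases on each side, the element in capitals.

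HOP3, 3-unit element in the 5′ UTR (chr4:7341319-7341347, minus strand): aaaaattcGAAATTTCGAGAActctcttg

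HOP2 and HOP1 differed from HOP3. HOP2 (chromosome 1, 23230922 to 23233543, plus strand) had 2 peaks after heat shock and 1 in each of the controls. Its added peak was centred in an intron 1913 bp downstream of the start, with a signal of 267 (percentile 27.7), and overlapped no peak of the other 6 lists. HOP1 (chromosome 1, 4172035 to 4174730, plus strand) had 2 peaks after heat shock, 2 in the spray control and 1 in the LD control. Its gained peak, 680 bp upstream with a signal of 170 (percentile 9.42), overlapped one of the spray control by 130 bp. HOP1 had no peak inside its coding region in any list. The start peak of HOP1, centred 40 bp upstream, stood at the same place in the heat shock list and both controls. Its signal was at percentile 41 after heat shock, 63.7 in the spray control and 65.4 in the LD control. The start peak of HOP2 was at percentile 93 after heat shock and at 83.5 in both controls.

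BAG6 (chromosome 2, 18986133 to 18990220, plus strand, 3 exons) had 6 peaks in its window after heat shock and 2 in each of the controls and at each time of the light series. All 6 heat shock peaks touched the span, of which they covered 20.3%, against 3.67% in both controls. The 4 gained peaks were centred in exon 2, at 682, 1222, 1462 and 2262 bp downstream of the start. Their signals were 1083, 880, 662 and 527, at percentiles 91.2, 84.5, 73 and 61.8, and each overlapped no peak of any other list. The peak near the end of the gene, in the 3′ UTR, was kept from the LD control. It stood at percentile 41.7 after heat shock, 55.8 in the spray control and 63.6 in the LD control.

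The start peak of BAG6 lay further downstream after heat shock. Its midpoint was 2 bp downstream of the gene start, against 118 bp upstream in each of the other 6 lists, and the overlap with them was 30 bp. It stood at percentile 92.4 after heat shock, 71.9 in the spray control and 79.6 in the LD control. A move of at least 120 bp in the direction of transcription was found for 0.546% of 15373 overlapping pairs of heat shock and LD control peaks near gene starts, and for 0.747% of 15789 pairs of spray and LD control peaks. In the 6 other lists the start peak reached into the divergent neighbour AT2G46230, and after heat shock it did not. The sequence between both gene starts is shown because the start peak of every list reaches into it. The heat shock peak runs from 72 bp upstream to 77 bp downstream of the BAG6 start, so its downstream part is not shown. A 2-unit heat shock element, in capitals, lies 34 to 27 bp before the first base of BAG6, under the heat shock peak and under the peak of no other list. At HOP2, HOP3 and ROF1 such elements near the start were not particular to heat shock, as given below.

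BAG6, from the start of AT2G46230 to that of BAG6 (chr2:18985960-18986132, plus strand): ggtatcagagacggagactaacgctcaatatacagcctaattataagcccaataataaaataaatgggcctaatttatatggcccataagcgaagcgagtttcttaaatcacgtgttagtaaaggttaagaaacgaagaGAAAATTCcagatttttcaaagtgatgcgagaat

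Start peaks of other members had smaller moves that did not set heat shock apart. Those of HOP2 and ROF1 and the upstream peak of BAG7 lay 60 bp further downstream than in the LD control. The midpoint at HOP2, 7 bp upstream, was also that of the dark and of 24 h of light, and at ROF1 the midpoint after 3 h of light lay further downstream still. At BAG7 the midpoint was also that of 24 h of light. Of all such pairs near gene starts, 53.4% had the same midpoint, 17.8% a heat shock peak further downstream and 28.8% one further upstream.

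BAG7 (chromosome 5, 25051978 to 25054444, minus strand) kept its peaks. After heat shock it had 1 peak at the start, centred 49 bp downstream at percentile 45.6, and 1 centred 231 bp upstream at percentile 79.5. The spray control had them at percentiles 60.2 and 88.4 and the LD control at 59.4 and 81.5. The upstream peak reaches into the neighbouring gene AT5G62400. Against either control, heat shock neither added nor removed a peak of BAG7, and no list had a peak in its span beyond the start.

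ROF2 (chromosome 5, 19690461 to 19693845, minus strand, 13 exons) had no peak in its window in any list but that of heat shock. It had 4 there, which covered 17.7% of its span. They were centred 190, 930, 1510 and 2010 bp downstream of the start, all in coding sequence, in exons 1, 3, 6 and 8. Their signals were 1027, 812, 757 and 350, at percentiles 89.6, 81.5, 78.7 and 38.8. Over the genome 5592 genes had no peak in the window in the other 6 lists. Of these, 232 (4.15%) had a heat shock peak, 16 had at least 2, and ROF2 was the 1 gene with at least 4. A weak peak 3830 to 3910 bp downstream of the start, past the end of the gene, was found in the LD control and at each time of the light series, and neither after heat shock nor in the spray control.

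The coding part of the first ROF2 peak is shown because it belongs to the strongest peak of a gene whose window held no peak without heat shock. It starts at the start codon and holds a 2-unit heat shock element, in capitals.

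ROF2, coding part of the peak gained after heat shock (chr5:19693581-19693656, minus strand): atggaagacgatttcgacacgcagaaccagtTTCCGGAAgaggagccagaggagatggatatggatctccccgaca

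ROF1 (chromosome 3, 9188096 to 9191630, plus strand, 13 exons) had 6 peaks in its window after heat shock, against 1 in the spray control and 2 in the LD control. The peaks covered 24.5% of the span after heat shock, 1.56% in the spray control and 5.8% in the LD control. The start peak was at percentile 77.1 after heat shock, 42 in the spray control and 28.7 in the LD control, and at 17.2 to 32.9 in the light series. The 5 gained peaks were centred 919, 1379, 1559, 1959 and 3399 bp downstream, in exon 3, an intron, exon 6, exon 8 and the 3′ UTR. Their signals were 342, 343, 356, 488 and 357. Of these gained peaks, 1 of the 5 stood in the upper 50% of the list, against 5 of 6 at HOP3, 3 of 4 at ROF2 and 4 of 4 at BAG6. A further heat shock peak lay past the end of the gene, 3779 bp from its start. The LD control had 1 weak peak in an intron (percentile 2.22), which neither the heat shock nor the spray control list held.

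ROF1 and ROF2 are paralogues with 13 exons each, and their gained peaks fell in exons of the same number at 3 places, exons 3, 6 and 8. The strongest gained peak of ROF1, in exon 8, is shown as the counterpart of the last ROF2 peak, in exon 8 of that gene. It holds no heat shock element.

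ROF1, peak gained after heat shock in exon 8 (chr3:9189981-9190130, plus strand): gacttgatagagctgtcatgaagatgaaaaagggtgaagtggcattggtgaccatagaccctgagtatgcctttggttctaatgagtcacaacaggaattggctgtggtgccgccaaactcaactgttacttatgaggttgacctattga

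Matches of the heat shock peaks to other loci were sought because ROF1 and ROF2, and the 3 HOP genes, resemble each other. Of the 28 heat shock peaks in the 7 windows, 0 had another match in the nuclear genome over at least 100 bp at 90% identity or more. The lost LD control peak upstream of HOP3 had no such match either, its longest being 80 bp at 76.2%. The HOP3 start peaks of 30 min and 3 h of light did have one, of 109 bp at 90.8%. Shorter close matches also lay under heat shock peaks, as 32 bp at 96.9% to HOP1 at the HOP3 peak centred in the first intron. The exon 8 peaks of ROF1 and ROF2 matched the other gene at 75.2% and at 73.4%. The HOP3 peak in exon 2 matched HOP1 at 80.5% and HOP2 at 78.9%.

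Along the span, the signal of heat shock peaks fell from the start to the end of 3 of the 4 genes. At HOP3 it fell at each of the 5 steps between 6 peaks, from 1988 at the first to 351 at the last. At BAG6 it fell at each step between 6 peaks, from 1139 to 369, and at ROF2 between 4 peaks, from 1027 to 350. At ROF1 the first peak was the strongest and the others showed no such order (Spearman's rho of signal with order 0.09 over 6 peaks, a description). Of the 114 genes with at least 4 heat shock peaks touching the span, 10 (8.77%) had a signal that fell at every step, and 5 (4.39%) one that rose. In the LD control these were 10 of 155 genes (6.45%) and 5 (3.23%), and no co-chaperone gene had as many peaks there.

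**Figure D4:**
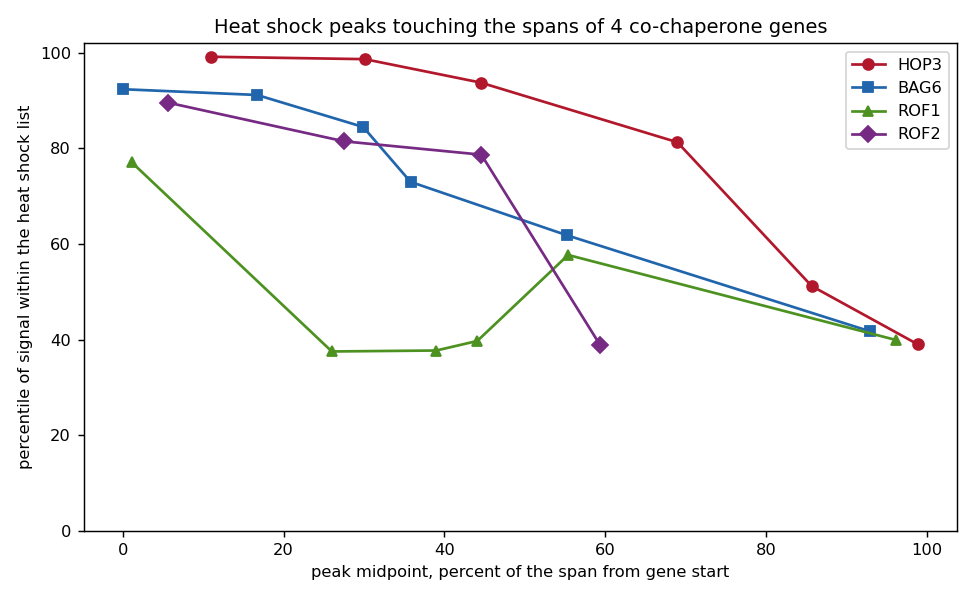
Percentile of the signal within the heat shock list (vertical axis) for each heat shock peak touching the span of HOP3, BAG6, ROF1 and ROF2, by the position of its midpoint in percent of the span from the gene start (horizontal axis). The percentile falls along HOP3, BAG6 and ROF2, from 99.2 to 39 at HOP3, and at ROF1 the first peak stands at 77.1 and the others between 37.5 and 57.7.

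Heat shock elements were counted under the gained peaks. Of the 21 gained peaks in the 7 windows, 7 (33.3%) held a 2-unit element and 0 a 3-unit element. Among these elements, those in gained peaks of BAG6 all had the same sequence, GAAGCTTC. The one in the 3′ UTR peak of HOP3 lay under a peak of all lists but the LD control. Of all gained peaks in the genome, which were not limited to gene windows, 9.55% held a 2-unit and 0.746% a 3-unit element. Upstream of the genes, a 2-unit element lay within 1000 bp at 5 of the 7, against 52.4% of all genes, and a 3-unit element at 0 of the 7, against 1.72%. Between 300 bp upstream and 100 bp downstream of the start, 4 of the 7 held a 2-unit element, against 25.6% of all genes. That of BAG6 lay under the heat shock peak alone, and that of ROF1 under a peak of all 7 lists. That of HOP2 lay under peaks of heat shock, the dark and 24 h of light. At HOP3 the one across the gene start lay under peaks of 30 min and 3 h of light only. Those within its 3-unit element lay under none.

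Losses after heat shock lay close to those of other genes. Against the LD control, 2 of the 7 genes lost a peak, HOP3 and ROF1, while 22.2% of all genes did. Against the spray control, gained peaks lay in the windows of 5 of the 7 genes, all but HOP1 and BAG7, and of 15.2% of all genes. These were 19 peaks, and the number per gene was 5 at HOP3, 5 at ROF1, 4 at ROF2, 4 at BAG6 and 1 at HOP2. Lost against the spray control were 2 peaks of HOP3, so 1 of the 7 genes lost a peak, against 22.7% of all genes. The comparisons with the spray control and with the LD control share the heat shock library.

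Differences between the spray control and the LD control lay close to those of other genes. It gained 1 peak at HOP1 and 1 at HOP3, so 2 of the 7 genes, against 16.8% of all genes. It lost 1 weak peak at ROF1, so 1 of the 7, against 18.5% of all genes. The gained peak of HOP3 was the one in the 3′ UTR that all lists but the LD control held.

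In the light series, gains and losses at the 7 genes lay close to those of other genes when an overlap of 1 bp counted as shared. After 30 min of light 0 of the 7 genes gained and 0 lost a peak against the dark, while 9.52% of all genes gained and 8.26% lost one. After 3 h 0 gained and 0 lost, while 17.6% of all genes gained and 8.87% lost one. After 24 h 0 gained and 1 lost, while 9.93% of all genes gained and 14.6% lost one. The lost one was the start peak of BAG7, which stood at percentile 52.1 in the dark, 49.4 after 30 min and 53.7 after 3 h. When only an overlap of at least 75 bp counted as shared, 2 genes gained and 2 lost a peak after 30 min. After 3 h, 3 gained and 3 lost one by that rule. The shares of all genes by that rule are not given here, so these counts have no background to be set against. The 3 light comparisons share the dark library.

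Positions of start peaks differed within the light series at several of the genes. The start peak of HOP3 was centred 172 bp upstream in the dark, 72 bp after 30 min, 72 bp after 3 h and 192 bp after 24 h. That of HOP2 was centred 7 bp upstream in the dark, 107 bp after 30 min, 87 bp after 3 h and 7 bp after 24 h. These distances at HOP3 and HOP2 span up to 120 and 100 bp, as large as or close to the heat shock move at BAG6. The HOP3 peaks of the light series touch the tRNA gene AT4G12405. Those of 30 min and 3 h match another locus over 109 bp at 90.8%, so their positions are uncertain. That of ROF1 was centred 41 bp upstream in the dark, 21 bp upstream after 30 min, 59 bp downstream after 3 h and 21 bp upstream after 24 h. The start peak of BAG6 did not move, and its signal stood at percentile 71.4 in the dark, 75.5 after 30 min, 71.2 after 3 h and 49.3 after 24 h. A peak past the end of HOP3, over PME1, was found at all 4 times of the light series, centred 3528 to 3628 bp from the HOP3 start. It overlapped no peak of the heat series, though the last heat shock peak of HOP3 also touched PME1. A peak just past the end of BAG6 was found in the 3 lists of the heat series and at no time of the light series.

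The chaperones these proteins work with were compared by the same measure. All 10 listed HSP90, HSP70 and HSP101 genes had a gained peak after heat shock, against 12.5% of all protein-coding genes. Of the 10, 6 had at least 4, against 0.0547% of all genes, and 3 lost a peak, against 22.2%. Their windows held 57 peaks after heat shock, 13 in the spray control and 17 in the LD control. HSP101, a disaggregase, and HSP90.2 had 8 gained peaks each, with 9 peaks in the window after heat shock and 1 in each of the controls. HSP90.3 had 5 gained peaks, with 7 peaks after heat shock, 2 in the spray control and 1 in the LD control. HSP90.2 and HSP90.3 are close copies of each other, and how reads shared between them were placed is not given in the sources used here, so their separate counts are uncertain. Of the 15 genes of the genome with at least 4 gained peaks, 4 are among the 7 co-chaperones and 6 among these partners.

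Other co-chaperones did not share the pattern of HOP3, ROF1, ROF2 and BAG6 by count. The 19 listed genes include further BAG proteins, FK506-binding proteins, SGT1, P23 and HIP1. Of them, 7 had a gained peak after heat shock, against 12.5% of all protein-coding genes. None had 3 or more, as 47 of all 27444 genes did. Their windows held 31 peaks after heat shock, 26 in the spray control and 31 in the LD control. SGT1A had 2 gained peaks. CYP40 and PAPP5 had 1 each, as had 4 further genes, P23-2, the AHA1 homologue, FES1A and BAG8, and of these PAPP5, P23-2 and FES1A also lost 1 each. Lost peaks were found at 8 of the 19, against 22.2% of all genes.

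The genes most like the members were named by the sum of absolute differences between their peak counts in the 7 lists. For BAG6 the nearest was MTHSC70-2 (AT5G09590), a mitochondrial HSP70, with the same 7 counts, followed at a difference of 1 by Cpn60beta2 (AT3G13470), a chaperonin subunit, and HOP3. For HOP3 the nearest were BAG6 and MTHSC70-2, both at 1, followed at a difference of 2 by PEPKR1 (AT1G12580), 1 of 5 genes at that distance. For ROF1 the nearest was HSP70B with the same 7 counts, followed by HSP70 and CLPB3 (AT5G15450), a plastid relative of HSP101, both at 2. ROF2 had 5 genes tied at 1. HOP1 shared its counts with 82 genes and HOP2 with 203.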

How the data were processed

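DNase I-seq peak lists of 14 samples in 7 conditions were used, and 6 RNA-seq samples were not used here. Per the labels' protocols, nuclei captured through biotin were digested at 25 °C for 3 min (DNase I, 45 units), and short fragments with both ends cut were sequenced. Plants of the LD condition had 16 h of light at 22 °C and 8 h of dark at 20 °C. Per the submitters' processing notes, the tools included Bowtie 0.12.7 and CASAVA 1.8.2 and TAIR10 was the build. How peaks were called, at which threshold and from how many reads is not given in the sources used here. Some samples of the series were subsampled to 1 read depth, and the labels do not mark which. The deposited files hold, per peak, the authors' signal and a −log10 p-value that ends at the same highest value in every list. The signal was used only within a list, and the −log10 p-value not at all. Organelle peaks (474, all in the spray control) were left out.

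Gene spans, sequences and features were read from RefSeq's TAIR10.1 assembly and its annotation, and coordinates are 1-based. As a check of the build, 58.1% of heat shock peaks had their midpoint near a gene start (1000 bp before to 200 bp after it), and 28% after a move by 5000 bp. A peak was gained or lost when it overlapped no peak of the other list by at least 1 bp. Counts were made with Python 3.11.15, numpy 2.4.6 and pandas 2.3.3, tested on simulated lists, and matches to other loci were sought with blastn 2.17.0. Peaks near gene starts are those centred at most 500 bp before or 200 bp after the start. All 7 members are named, with up to 3 genes per comparison list by gained peaks, up to 3 genes of the most similar counts, and neighbours touched by a printed peak. The remaining names of genes were taken from the annotation. The members, lists and measures were chosen with earlier results of these data known. Other settings were tried for overlap, window, signal and list length. Peak counts carry no error between replicates.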

Additional observations from a re-analysis of the deposited data

How the results depend on the processing

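With 1 library per condition nothing could be left out, and read depth, not given in the sources used here, limits how the lists compare. No paired analysis was possible because each condition had 1 library and no test was made. Genes gaining a peak after heat shock against the LD control numbered 6 of 7 as reported and 4 to 6 under the other settings, and gained peaks numbered 21 as reported, 13 in the upper 50% by signal and 19 to 22 under the others, including 19 with both controls or, chosen after the data were seen, all 6 other lists as the comparison. Genes losing a peak after heat shock numbered 2, 0 in the upper 50% by signal, 1 with lists of equal length, and 3 with an overlap of at least 75 bp or a window reaching 500 bp downstream. Spray-gained genes numbered 2, and 1 in the upper 50% by signal, with lists of equal length, over the span alone, and without peaks within 150 bp of the other list. When only an overlap of at least 75 bp counted as shared, 2 genes gained and 2 lost a peak after 30 min of light and 3 gained and 3 lost one after 3 h, in place of 0. Without peaks within 150 bp of the other list, 0 genes lost a peak after 24 h in place of 1. The cause was not tested. Shares of all genes under these other settings are not given here.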
